A study of Homo sapiens with 12 samples.

Results

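TIGK cells given L-arginine (Arg) were compared over time in culture, with the libraries taken after 48 h of treatment set against those taken after 24 h. These were 6 of the 12 libraries of the study, chosen by their labels as replicates A, B, and C of the Arg 24 h group and of the Arg 48 h group. TIGK cells are human keratinocytes of the gingiva that were immortalized by expressing telomerase (hTERT), so all values come from 1 immortalized line, and no deleted or edited gene is named in its labels. Both groups were kept at 48 mM glucose with 500 μM Arg, in a base medium that itself lacked Arg and was supplemented with insulin, TGF-α, epinephrine, transferrin, pituitary extract, and hydrocortisone. The other 6 libraries came from control cells (Con) at the same glucose level without added Arg, 3 each at 24 and 48 h, and they are given beside the Arg values where they show how time acted without Arg. The labels give replicate letters but do not say that the replicates were separate passages or days, so the p-values measure the spread between these libraries only, which may be partly technical.

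Gingival keratinocytes form a stratified epithelium. Basal cells divide and express KRT5, KRT14, and the transcription factor p63, and cells that leave the basal layer strengthen their desmosomes, switch to suprabasal keratins such as KRT13, KRT4, or KRT10, and may later build a cornified envelope. Notch signaling and high cell density are known to favor this switch, whereas ligands of the EGF receptor are known to favor growth and migration. Arginine itself is a building block of proteins and the precursor of ornithine, polyamines, nitric oxide, and creatine.

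Poly(A) RNA was sequenced, and the counts of an Arg library summed to between 16542243 and 19033907. A principal component analysis of all 12 libraries separated 24 h from 48 h libraries on the first component (57.2% of the variance). Arg 24 h libraries lay between −16.2 and −5.64 there and Arg 48 h libraries between 20.3 and 21.9. Con libraries lay between −27.2 and −12.0 at 24 h and between 4.09 and 23.6 at 48 h, so this component did not hold time alone. Replicates differed by more than sampling noise (chi-square per degree of freedom between 4.52 and 12.4 within the Arg groups), so none was counted as a repeat of another. Con 48 h replicate B stood apart from its group, at 23.6 on the first component against 6.12 and 4.09. On the second component (15.4% of the variance) it was at 2.12, against 13.3 and 12.6 in its group and −4.18 to −0.80 in the Arg 48 h libraries. It thus lay nearer to the Arg 48 h libraries than to its own group on both components, and the reason was not tested. The main Con values below are given with and without Con 48 h replicate B. Con 24 h replicate B also lay apart from its group, at −12.0 on the first component against −27.2 and −26.7. All 12 keratinocyte markers were detected, with a summed level of 48996 to 57182 CPM (counts scaled to a library total of 1000000) at 24 h and 49984 to 54581 CPM at 48 h. Markers of other cell types were low. The 8 fibroblast markers summed to 30.2 to 41.4 CPM at 24 h and 72.7 to 100 CPM at 48 h, almost all of it DCN and COL1A1, while COL1A2, COL3A1, POSTN, and PDGFRA did not exceed 0.269 CPM in any Arg library. The melanocyte list summed to 16.2 to 18.99 CPM and then 21.5 to 25.6 CPM, nearly all MITF, with TYR and TYRP1 at 0. Endothelial markers summed to 0.990 to 3.17 CPM and then 4.32 to 6.52 CPM, smooth muscle markers lay between 0.562 and 2.14 CPM, and immune markers did not exceed 2.33 CPM. The part of these shifts in the results below was not tested.

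Of 14398 genes tested with edgeR's quasi-likelihood test, 2060 (14.3%) were higher and 2012 (14.0%) were lower at 48 h than at 24 h at an adjusted p under 0.05. These 2 shares are the background for every count of called members below. The changes were balanced on the TMM scale, with a median log2 fold change of 0.00092 over all tested genes. With scaling by library size alone, the split became 2568 higher and 1453 lower (63.9% of calls higher, against 50.6%), because the mean log2 TMM factor was 0.0579 greater at 48 h. Changes of more than 2-fold were found in 311 of the genes called higher and 115 of the genes called lower. In 6078 genes (42.2%), the 3 values at 24 h did not overlap with the 3 at 48 h. Genes called higher were longer, with a median exonic length of 6627.5 bases against 4011 in those called lower, and across genes the change correlated weakly with length (Spearman rho 0.20, over 14398 genes that share the same 6 libraries). After a correction for exonic length chosen after seeing the data, 1811 genes were higher and 1955 lower. In bulk RNA, fewer cells of a type and less RNA per cell cannot be told apart, and this holds for each gene below.

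**Figure D1:**
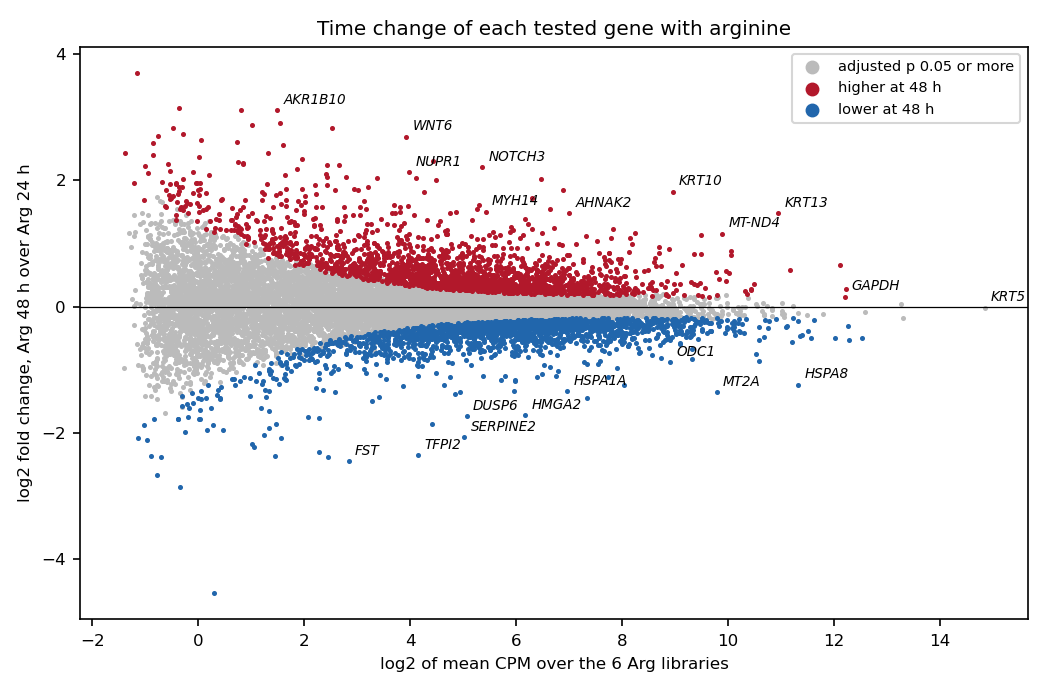
Log2 fold change from Arg 24 h to Arg 48 h (vertical axis) against the log2 mean CPM of the 6 Arg libraries (horizontal axis), with 1 point per tested gene. Red points were higher and blue points lower at an adjusted p under 0.05; NOTCH3 and NUPR1 lie near the top at moderate levels, whereas KRT5, the most abundant of the labeled genes, lies on the zero line.

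The genes that rose with the smallest p-values included a Notch receptor, a suprabasal keratin, and proteins of the cytoskeleton. NOTCH3, a Notch receptor, stood at 11.2, 13.4, and 19.1 CPM in Arg 24 h replicates A, B, and C and at 76.0, 66.3, and 60.2 CPM at 48 h. Every 48 h library was far above every 24 h library, a log2 fold change of 2.21 ± 0.14 (SE; adjusted p = 6.3e-09). MYH14, a nonmuscle myosin heavy chain, was at 19.1, 25.2, and 23.1 CPM and then 61.1, 68.7, and 61.6 CPM, a log2 fold change of 1.51 ± 0.10. AHNAK2, a very large scaffold protein, went from 54.2, 71.1, and 78.8 CPM to 185, 180, and 204 CPM. CLIC3, an intracellular chloride channel protein, was measured at 39.2, 50.4, and 61.9 CPM and later at 136, 158, and 150.0 CPM. NUPR1, a small stress-induced nuclear protein, changed from 4.05, 7.05, and 6.56 CPM to 28.0, 25.6, and 23.4 CPM, and its log2 fold change of 2.13 ± 0.16 was close to that of NOTCH3. RHOBTB3, an atypical small GTPase with BTB domains, rose by 1.23 ± 0.09 on the log2 scale.

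The genes that fell with the smallest p-values included, beside chaperones and a metallothionein described below, a neuropeptide, a chromatin protein, a protease inhibitor, and an amino acid transporter. GAL, which encodes the neuropeptide galanin, was at 153, 148, and 139 CPM at 24 h and at 65.1, 69.1, and 71.3 CPM at 48 h. HMGA2, an architectural chromatin protein of growing cells, dropped from 137, 108, and 84.9 CPM to 30.2, 36.0, and 34.3 CPM, a log2 fold change of −1.72 ± 0.13 (adjusted p = 2.1e-08). SERPINE2, a secreted inhibitor of serine proteases, was at 68.05, 49.6, and 39.8 CPM and then 10.9, 13.8, and 12.9 CPM. Replicate A was the highest of the 24 h libraries for both genes, yet all 24 h values exceeded all 48 h values. SLC38A5, an exporter and importer of glutamine and other neutral amino acids, went from 205, 199, and 199 CPM to 106, 111, and 112 CPM. The steepest falls among genes of at least 5 CPM were those of FST (−2.44 ± 0.24), the antagonist of activin, KRTAP2-3 (−2.39 ± 0.23), a hair keratin-associated protein, TFPI2 (−2.35 ± 0.18), a Kunitz-type protease inhibitor, and TNC (−2.31 ± 0.27), the matrix glycoprotein tenascin C. The steepest rises were those of AKR1B10, an aldo-keto reductase, FOLR1, a folate receptor, CLEC7A, a receptor for fungal glucans, WNT6, a Wnt ligand, and BBOX1, an enzyme of carnitine synthesis. AKR1B10 was near the detection limit at 24 h, at 0.225, 0.699, and 0.806 CPM, and reached 6.05, 5.60, and 3.46 CPM at 48 h, so its log2 fold change of 3.11 ± 0.38 rests on few reads and its reads may be shared with related family members. All 5 passed the minimum of 5 CPM through their 48 h mean only, and FST, KRTAP2-3, and TNC through their 24 h mean only, so their place in this order follows in part from the minimum. WNT6 was at 1.97, 3.09, and 7.09 CPM and then 27.3, 28.9, and 23.0 CPM.

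**Figure D2:**
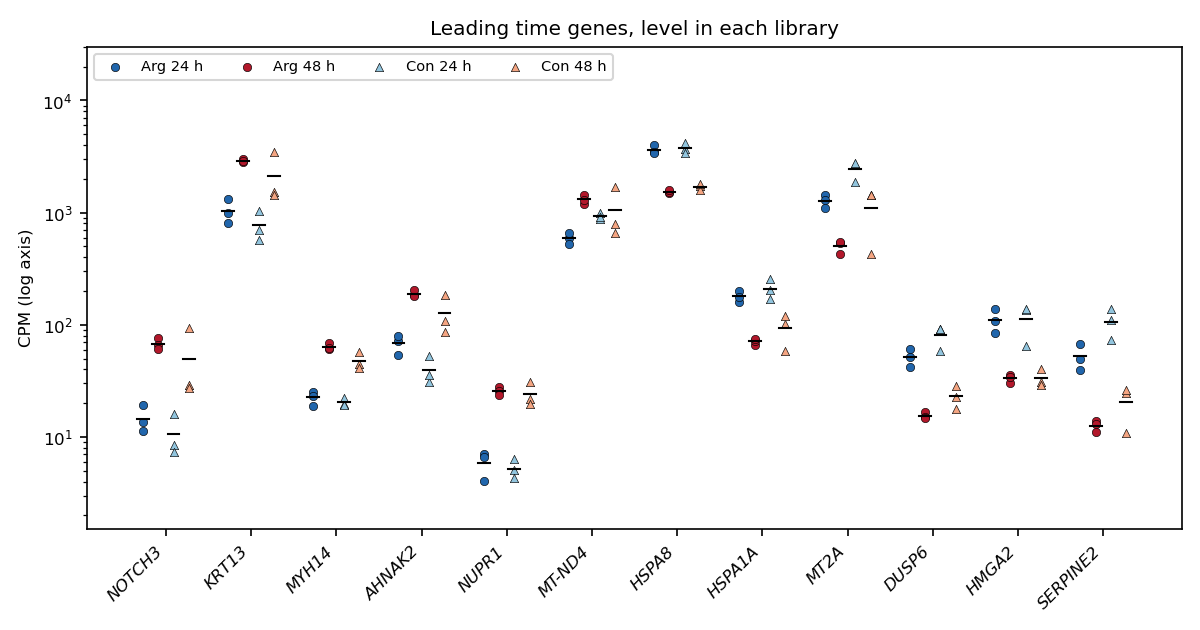
CPM on a log axis for 12 leading genes (horizontal axis) in each library, with circles for Arg, triangles for Con, and black bars for group means of 3 libraries. For each of the 12 genes the Arg 48 h circles lie apart from the Arg 24 h circles, and Con 48 h replicate B is the triangle that departs from its group in NOTCH3, KRT13, and MT-ND4. Leaving that library out also moved the Con log2 fold change of MT2A, from −1.15 to −0.77.

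Desmosomal genes rose. Of 13 tested members, 10 were higher and 2 lower, with a median log2 fold change of 0.77, beside 0.00092 over all genes and a background of 14.3% called higher. DSP, the plakin that anchors keratin to the desmosome, was at 664, 802, and 787 CPM at 24 h and at 1366, 1364, and 1437 CPM at 48 h. The cadherins rose alongside it, namely DSC2 (1.24 ± 0.10), DSG3 (1.09 ± 0.12), and DSC3 (0.77 ± 0.08). The 2 members that fell were the plakophilins PKP2 (−0.54) and PKP4 (−0.25), which were chosen after their values were seen. Among 20 tight and gap junction genes, 8 rose and 2 fell, with CLDN1 at 49.6, 50.3, and 56.4 CPM and then 92.2, 88.9, and 80.5 CPM.

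Suprabasal keratins rose as well, whereas the major basal keratins did not pass the test. KRT13, the suprabasal keratin of oral lining epithelium, stood at 805, 994, and 1321 CPM at 24 h and at 3014, 2814, and 2912 CPM at 48 h, a log2 fold change of 1.49 ± 0.11 (adjusted p = 2.6e-08). KRT10, its counterpart in keratinizing epithelium, was at 187, 243, and 228 CPM and then 1110.0, 694, and 517 CPM, and the 48 h replicates spread over a wider range than the gap between the lowest of them and the highest 24 h library. KRT4, the partner of KRT13, rose by 1.87 ± 0.20 from levels of 2.56 to 3.98 CPM. Of the 12 tested genes of this list, 5 rose and ECM1, a secreted matrix protein, fell by 1.10 on the log2 scale. KRT5 was at 26414, 31055, and 31695 CPM at 24 h and at 29835, 29582, and 28856 CPM at 48 h, and KRT14 had a log2 fold change of −0.18 ± 0.07 (adjusted p = 0.063). TP63, the master regulator of stratified epithelia, rose by 0.34 ± 0.08. Among the 19 basal genes, 5 rose and 5 fell (2 without Arg 24 h replicate B and 3 without Arg 48 h replicate B or C), with COL7A1 (1.16 ± 0.12), the anchoring fibril collagen, and KRT15 (1.12 ± 0.13), a basal keratin, among those that rose. The keratins of activated keratinocytes split as well, with KRT16 higher by 1.14 ± 0.11 and KRT17 and KRT6B lower by −0.38 ± 0.08 and −0.55 ± 0.13. KRT6A, KRT6B, KRT6C, KRT16, and KRT17 have near-identical relatives in the genome, so their split of reads is uncertain.

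Transcription factors and Notch components that drive keratinocyte differentiation rose in 15 of 27 tested members and fell in none, with a median of 0.46. GRHL3, a Grainyhead factor needed for barrier formation, rose by 1.10 ± 0.14, and ZNF750, a repressor of the basal program, by 1.92 ± 0.25. The locus of GRHL3 overlaps STPG1 on the other strand and that of ZNF750 overlaps TBCD, so both are uncertain where counting ignored strand. Late differentiation itself was mixed. In the cornified envelope list, 12 of 37 tested genes rose and 8 fell, with a median of 0.07. SCEL (1.12 ± 0.09), ABCA12 (1.38 ± 0.11), PPL (0.86 ± 0.10), and TGM1 (0.73 ± 0.10) rose, which encode sciellin, a lipid transporter of lamellar granules, periplakin, and a cross-linking transglutaminase. The members that fell included small proline-rich and late cornified envelope proteins, such as SPRR1B (−0.70), SPRR1A (−0.72), and LCE3E (−1.78), which were chosen after their values were seen and belong to clustered families of similar sequence. IVL, the envelope precursor involucrin, was at 4.16, 5.77, and 5.00 CPM and then 4.43, 6.67, and 5.53 CPM, a log2 fold change of 0.15 ± 0.21 (adjusted p = 0.64). Of 12 S100 genes, none rose and 5 fell (3 without Arg 24 h replicate C or Arg 48 h replicate B or C), among them S100A2 (−0.91 ± 0.10) and S100A16 (−0.42 ± 0.06). S100A6 was the only one of the named S100 genes whose libraries overlapped, and it lost its call in 7 of the 15 alternatives.

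Most of the called ligands of the EGF receptor family fell, while the receptors EGFR and ERBB2 rose. AREG (amphiregulin) was at 134, 132, and 101 CPM at 24 h and at 57.2, 60.2, and 58.0 CPM at 48 h, and EREG (epiregulin) went from 50.2, 40.0, and 34.7 CPM to 15.6, 17.7, and 14.4 CPM. NRG1, a ligand of ERBB3 and ERBB4, fell by 1.01 on the log2 scale (SE 0.08), from 157, 147, and 141 CPM to 71.0, 70.5, and 79.0 CPM. EGFR, the receptor itself, rose from 393, 449, and 465 CPM to 692, 666, and 706 CPM. In all, 3 of 11 tested members rose and 5 fell. The remaining called members were EPGN (0.85), a ligand, and ERBB2 (0.43), a receptor, which rose, and TGFA (−0.48), a ligand, and ERRFI1 (−0.25), an inhibitor of the receptor, which fell, and these 4 were chosen after their values were seen. In the list of AP-1 and immediate early genes, which holds targets and feedback inhibitors of ERK signaling, 12 of 28 fell and 6 rose, with a median of −0.29. DUSP6, a phosphatase that inactivates ERK, was at 61.1, 51.8, and 42.2 CPM and then 16.7, 15.1, and 14.6 CPM, a log2 fold change of −1.74 ± 0.12 (adjusted p = 1.1e-08). DUSP4, a related phosphatase, fell by 1.24 on the log2 scale, FOSL1, an AP-1 subunit, by 1.16, and MYC, the growth-promoting transcription factor, by 0.82. The members that rose included FOS, at 37.4, 36.0, and 43.5 CPM and then 79.5, 63.0, and 65.4 CPM. Targets of YAP and TEAD split evenly, with 6 of 20 higher and 6 lower, and NT5E (−1.85 ± 0.16), an ectonucleotidase, and F3 (−1.24 ± 0.12), tissue factor, fell.

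Mitotic genes fell as a group. Of 56 tested genes of the G2/M phase, 36 were lower and 1, KIF20B (chosen after its value was seen), was higher, with a median log2 fold change of −0.25, against a background of 14.0% called lower. UBE2C, a ubiquitin-conjugating enzyme of the anaphase-promoting complex, was at 217, 240.5, and 219 CPM at 24 h and at 142, 150, and 154 CPM at 48 h. AURKB, a kinase of chromosome segregation, went from 134, 136, and 141 CPM to 93.8, 88.9, and 91.6 CPM. PLK1, a kinase of mitotic entry, changed from 314, 319, and 314 CPM to 196, 217, and 230 CPM, and PSRC1, a spindle protein, fell by 0.63 on the log2 scale. In each of these 4 genes, the 24 h libraries all lay above the 48 h libraries. MKI67, the proliferation antigen Ki-67, did not follow them, at 232, 330, and 256 CPM and then 240, 281, and 342 CPM, a log2 fold change of 0.08 ± 0.11 (adjusted p = 0.66). Its direction turned with the length correction and when Arg 24 h replicate A or Arg 48 h replicate C was left out. S phase genes changed less, with 4 of 42 higher and 8 lower. RRM2, the small subunit of ribonucleotide reductase, fell by 0.87 on the log2 scale, whereas MCM6, a subunit of the replicative helicase, rose by 0.43 ± 0.06. Of 32 replication-dependent histones, which largely lack poly(A) tails, 2 fell. Inhibitors of cyclin-dependent kinases rose in 3 of 7 cases, with CDKN2B (p15) from 25.3, 25.6, and 30.1 CPM to 61.7, 48.0, and 46.0 CPM and CDKN1A (p21) from 81.0, 81.3, and 89.4 CPM to 105, 106, and 107 CPM. Genes linked to quiescence and FOXO factors rose in 15 of 18 cases and fell in 1, with a median of 0.52, including GABARAPL1 (1.12 ± 0.12), PNRC1 (0.88 ± 0.11), and YPEL5 (0.74 ± 0.11), while p53 targets rose in 8 of 26 and fell in 2. The 8 became 2 without Arg 48 h replicate A and 5 without Arg 24 h replicate A or Arg 48 h replicate B or C. SKP2, the ubiquitin ligase subunit that degrades p27, was at 409, 389, and 361 CPM and then 337, 332, and 318 CPM, and lost its call without Arg 48 h replicate B or C and with scaling by library size alone.

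Mitotic promoters often carry a cell cycle homology region (CHR, the letters TTTGAA), a motif read by the DREAM and MuvB complexes. The RefSeq table of promoters (build GRCh38.p14) held 47 of the 56 genes. In the 250 bases upstream of the start, 25 of the 47 (53.2%) held TTTGAA on either strand, against 13.3% of 35116 promoters of the same length. Of the 25 genes with a match, 17 fell with time, and of the 22 without a match, 11 fell. PLK1 (chr16:23678639-23678888, plus strand) and CCNB2 (chr15:59104896-59105145, plus strand), which encodes cyclin B2 and was chosen after its values were seen, are shown because in both the match, in capitals, lies close to the start. A match is a description of letters, not of a bound site.
PLK1: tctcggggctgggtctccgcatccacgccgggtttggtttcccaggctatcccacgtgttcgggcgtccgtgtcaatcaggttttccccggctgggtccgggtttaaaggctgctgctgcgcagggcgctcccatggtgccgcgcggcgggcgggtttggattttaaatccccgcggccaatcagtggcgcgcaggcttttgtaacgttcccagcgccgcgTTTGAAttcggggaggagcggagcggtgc
CCNB2: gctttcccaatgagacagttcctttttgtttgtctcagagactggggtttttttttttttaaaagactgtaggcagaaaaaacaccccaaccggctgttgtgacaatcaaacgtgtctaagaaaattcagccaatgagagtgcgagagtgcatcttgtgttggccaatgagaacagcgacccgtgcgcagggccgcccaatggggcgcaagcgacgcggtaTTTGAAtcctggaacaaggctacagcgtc

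Chaperones of the heat shock response fell, with 12 of 19 tested genes lower and 3 higher and a median of −0.44, beside 14.0% of all genes called lower and 14.3% higher. HSPA8, the abundant constitutive Hsp70, had the smallest p of all genes that fell. It was at 4031, 3456, and 3368 CPM at 24 h and at 1493, 1519, and 1592 CPM at 48 h, a log2 fold change of −1.24 ± 0.07 (adjusted p = 1.3e-09). HSPA1A, an inducible Hsp70, went from 160.0, 202, and 178 CPM to 65.4, 72.0, and 75.4 CPM. Its near-identical copy HSPA1B fell by 1.11 on the log2 scale, and reads may have been split between both copies. The 3 members that rose were small heat shock proteins, CRYAB (1.35 ± 0.13), HSPB8 (0.80), and HSPB1 (0.43), the last 2 chosen after their values were seen. The heat shock genes together took 1.44% ± 0.076 (SD, n = 3) of all counts at 24 h and 1.02% ± 0.033 at 48 h, and the groups did not overlap. Of the 19 genes, 17 were in the promoter table, and 7 of them (41.2%) held a minimal heat shock element, GAANNTTC or TTCNNGAA, on either strand, against 11.6% of all promoters. Of the 7 with a match, 5 fell, and of the 10 without, 7 fell. The promoters of HSPA8 (chr11:123062137-123062386, minus strand) and HSPA1A (chr6:31815293-31815542, plus strand) are shown with matches in capitals, because these chaperones led the list. In HSPA8, 4 overlapping matches form 2 runs, and in HSPA1A there is 1 match.
HSPA8: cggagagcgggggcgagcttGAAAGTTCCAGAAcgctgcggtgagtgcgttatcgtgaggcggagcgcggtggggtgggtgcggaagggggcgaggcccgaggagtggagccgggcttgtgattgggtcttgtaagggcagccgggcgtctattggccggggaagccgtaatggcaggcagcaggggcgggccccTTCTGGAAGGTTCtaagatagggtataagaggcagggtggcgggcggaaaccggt
HSPA1A: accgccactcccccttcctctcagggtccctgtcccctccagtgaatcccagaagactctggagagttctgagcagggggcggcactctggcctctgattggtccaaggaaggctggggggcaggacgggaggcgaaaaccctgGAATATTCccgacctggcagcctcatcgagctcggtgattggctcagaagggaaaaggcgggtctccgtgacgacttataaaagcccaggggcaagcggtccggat

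Metallothioneins, small proteins that bind zinc and copper, fell in parallel. MT2A stood at 1422, 1297, and 1104 CPM at 24 h and at 425, 533, and 542 CPM at 48 h, a log2 fold change of −1.35 ± 0.09 (adjusted p = 8.6e-09). MT1E was at 346, 273, and 262 CPM and then 128, 149, and 130 CPM. SLC30A1, a zinc exporter controlled by the same metal sensor, fell by 0.67 on the log2 scale. MT1X also fell, by 0.53, but lost its call without Arg 24 h replicate B or Arg 48 h replicate A, with all 12 libraries in 1 model, and with the length correction. In all, 4 of 6 tested members of this list fell and none rose. The list also holds SLC30A1, which is 1 of the 4, and MTF1, and neither is a metallothionein. The metallothionein genes are close copies that can share reads. The promoter table held 4 of the 6, and 3 of these, MT2A, MT1X, and SLC30A1, held a metal response element core (TGCACNC or TGCGCNC on either strand), which 24.8% of all promoters held. MT2A (chr16:56608334-56608583, plus strand) had 7 matches and MT1X (chr16:56682220-56682469, plus strand) had 4, in capitals.
MT2A: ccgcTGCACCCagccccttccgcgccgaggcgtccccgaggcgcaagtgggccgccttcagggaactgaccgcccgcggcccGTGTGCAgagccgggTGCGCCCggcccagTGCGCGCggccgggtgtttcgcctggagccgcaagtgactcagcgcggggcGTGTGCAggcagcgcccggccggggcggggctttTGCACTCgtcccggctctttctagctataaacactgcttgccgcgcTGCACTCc
MT1X: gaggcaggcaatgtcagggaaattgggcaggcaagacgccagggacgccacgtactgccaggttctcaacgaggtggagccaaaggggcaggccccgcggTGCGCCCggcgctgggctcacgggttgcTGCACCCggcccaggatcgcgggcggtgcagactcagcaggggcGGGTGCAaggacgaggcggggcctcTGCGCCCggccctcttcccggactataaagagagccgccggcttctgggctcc

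Genes of the mitochondrial genome rose. All 13 tested protein-coding genes were higher at 48 h, with log2 fold changes from 0.36 to 1.23 and a median of 0.91. MT-ND5, a subunit of respiratory complex I, was at 179, 174, and 211 CPM at 24 h and at 399, 454, and 414 CPM at 48 h. MT-ND4, another complex I subunit, went from 589.7, 520.4, and 659 CPM to 1200.0, 1441, and 1304 CPM. MT-ND1 rose by 1.08 ± 0.09, and MT-ND4L, whose reading frame overlaps that of MT-ND4 on the same strand, by 1.23 ± 0.09. The share of counts from all 37 mitochondrial genes was 0.802%, 0.624%, and 0.776% in the 24 h libraries and 1.14%, 1.31%, and 1.16% in the 48 h libraries, without overlap. Nuclear subunits of oxidative phosphorylation did not move with them, since 5 of 77 rose and 4 fell, with a median of 0.03. These counts were 2 and 1 without Arg 48 h replicate B, 3 rose without Arg 48 h replicate A, 2 fell without Arg 24 h replicate B or Arg 48 h replicate C, and with library size only 12 rose and 2 fell. MT-RNR1, the small mitochondrial ribosomal RNA, was at 262, 222, and 208 CPM and then 192, 202, and 208 CPM, a log2 fold change of −0.20 ± 0.08 (adjusted p = 0.062).

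**Figure D3:**
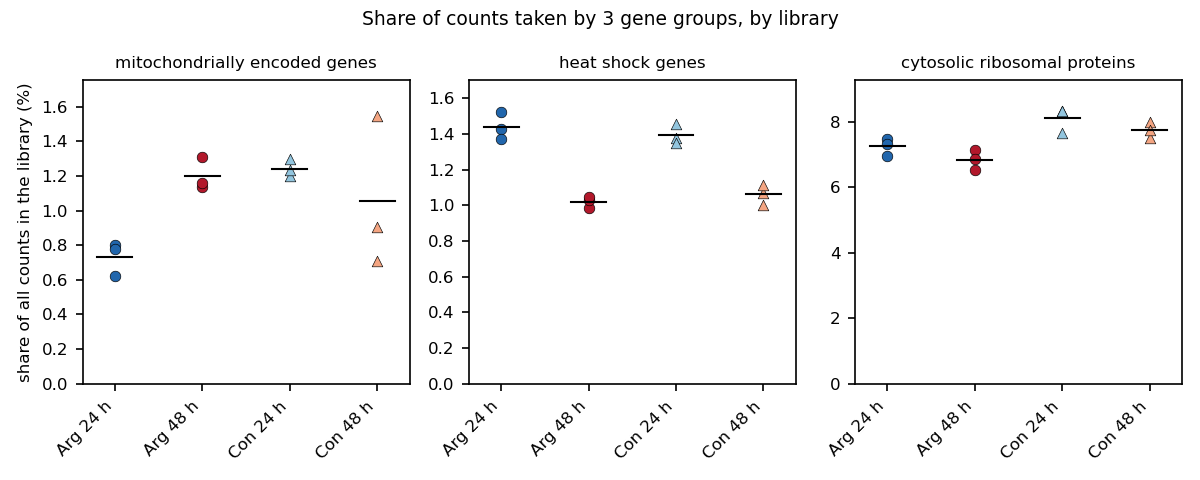
Share of all counts in a library (vertical axes, %) taken by mitochondrially encoded, heat shock, and cytosolic ribosomal protein genes in each group (horizontal axes), with 1 point per library and a bar for the mean of 3 libraries. The mitochondrial share is higher in all Arg 48 h libraries than in all Arg 24 h libraries, whereas Con 48 h replicate B (1.55%) stands far above the other Con 48 h libraries (0.906% and 0.707%).

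Of 31 tested genes of arginine and polyamine metabolism and transport, 5 rose (3 without Arg 24 h replicate A or Arg 48 h replicate C) and 12 fell. Time changed this list in a similar way without Arg, where 2 rose and 10 fell. Its median was −0.14 with Arg and −0.10 without (−0.08 without Con 48 h replicate B). Without Con 24 h replicate A, 4 were called lower in Con. In the Arg libraries, ODC1, which turns ornithine into the first polyamine, putrescine, was at 753, 578, and 552 CPM at 24 h and at 329, 342, and 349 CPM at 48 h. SRM, spermidine synthase, went from 340.2, 334, and 282 CPM to 150.0, 171, and 168 CPM, and SAT1, which acetylates spermidine and spermine for breakdown or export, fell by 1.15 on the log2 scale (SE 0.09). ASS1, argininosuccinate synthase of the pathway that recycles citrulline to arginine, rose from 90.7, 97.8, and 113 CPM to 158, 158, and 145 CPM. ARG2, the mitochondrial arginase, was also lower (−0.99), and SLC7A1, the main cationic amino acid transporter, was higher (0.36), both chosen after their values were seen. Targets of ATF4, the factor that answers amino acid shortage, split into 8 higher and 7 lower of 32. NUPR1 rose most, whereas SLC7A5 and SLC3A2, the 2 chains of the leucine transporter, fell by 0.53 and 0.48 on the log2 scale. SLC7A5 was at 5577, 6112, and 5986 CPM and then 3674, 4097, and 4504 CPM. Among 20 cytosolic aminoacyl-tRNA synthetases, 6 fell, with VARS (−0.61 ± 0.08) in front, and 1 rose.

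The machinery of translation and splicing fell by small amounts. Of 85 ribosomal protein genes, none rose and 29 fell, with a median of −0.16. The number that fell was 10 without Arg 48 h replicate B or C, 19 without Arg 24 h replicate A, 12 with library size only, and 15 with the length correction. Their share of all counts was 7.25% ± 0.26 (SD, n = 3) at 24 h and 6.84% ± 0.32 at 48 h, with overlapping groups. RPL18, with 940, 933, and 940 CPM and then 742, 706, and 702 CPM, fell by 0.39 on the log2 scale. Ribosomal protein genes have many processed copies, so the share of reads given to each is uncertain. Of 34 SR and hnRNP splicing factors, 14 fell and 2 rose. SRSF7 was at 258, 243, and 243 CPM and then 172, 162, and 170 CPM, and SRSF2, SRSF1, and SRSF3 fell by 0.54, 0.54, and 0.39 on the log2 scale. SRSF5 was 1 of the 2 that rose, from 125, 139, and 120.3 CPM to 163, 154, and 152 CPM (0.29 ± 0.07).

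Targets and ligands of BMP and TGF-β signaling were split, with 5 of 20 tested members higher and 8 lower. ID3, an inhibitor of helix-loop-helix factors induced by BMPs, was at 31.7, 46.6, and 75.2 CPM at 24 h and at 209, 172, and 171 CPM at 48 h. ID1 rose from 23.8, 32.0, and 54.2 CPM to 134, 116, and 113 CPM, and ID2 rose by 2.25 ± 0.25. The 24 h replicates of ID3 and ID1 spread more than 2-fold, with replicate C highest, but stayed below all 48 h libraries. SMAD6 (2.27), an inhibitor of BMP signaling, also rose, while INHBA (−0.93), a chain of activin, and TGFB1 (−0.39) fell, and these 3 were chosen after their values were seen. Matrix genes were split too, with 11 of 28 higher and 6 lower. COL16A1 (1.07 ± 0.13) and COL4A5 (0.93 ± 0.13) rose, and TIMP1 (−0.78 ± 0.08), an inhibitor of metalloproteases, and TNC fell. MMP1, interstitial collagenase, fell by 2.36 on the log2 scale and was chosen after its value was seen. DCN and COL1A1, which are fibroblast markers, rose over the same hours by 1.61 ± 0.16 and 0.80 ± 0.12, with COL1A2, COL3A1, and POSTN at or near 0.

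Interferon-stimulated genes rose in 20 of 37 tested cases and fell in none, with a median of 0.38, beside 14.3% of all genes called higher. The sizes were moderate. MX1, an antiviral GTPase, was at 30.7, 31.8, and 28.8 CPM at 24 h and at 47.0, 48.6, and 42.3 CPM at 48 h, and PARP14 (0.67 ± 0.09), OAS3 (0.47 ± 0.08), and STAT2 (0.57 ± 0.10), the last a subunit of the interferon-activated transcription complex, rose similarly. ISG15, chosen after its value was seen, had a log2 fold change of 0.17 and did not pass the test. Interleukins and chemokines rose in 5 of 13 cases. CXCL14, a chemokine of normal epithelium, was at 23.6, 29.5, and 53.2 CPM and then 208, 141, and 79.9 CPM, a wide spread at both times (2.01 ± 0.26), and CCL5 rose by 1.61 ± 0.25 to at most 5.93 CPM.

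Lipid, redox, and nutrient genes showed smaller shifts. Fatty acid synthesis genes rose in 11 of 18 cases (7 with all 12 libraries in 1 model) and fell in 2, with ACSL1 (0.74 ± 0.07), which activates fatty acids, higher and ELOVL6 (−0.57 ± 0.09), an elongase, lower. Of 27 genes of sterol synthesis and uptake, 9 rose (5 with all 12 libraries in 1 model) and 1 fell, among them SREBF1 (0.63 ± 0.10), a transcription factor of lipid synthesis, with a median of 0.04, and SREBF1 overlaps RAI1 on the other strand, so its reads are uncertain where counting ignored strand. NRF2 targets rose in 11 of 27 cases and fell in 2, among them GCLC (0.63 ± 0.07), which limits glutathione synthesis, higher and TXNRD1 (−0.49 ± 0.09) lower. Lysosome and autophagy genes rose in 12 of 30 cases and fell in 1, for example ULK1 (0.95 ± 0.12) and PSAP (0.36 ± 0.06), and the 12 became 6 without Arg 48 h replicate B and 7 without A or C. Glycolytic genes split into 5 higher and 5 lower of 27, and the 5 higher became 2 without Arg 48 h replicate B and 3 without any other library but Arg 24 h replicate C. ENO1 (enolase), which fell, was at 5503, 5378, and 5495 CPM and then 4225, 4538, and 4470.0 CPM, and GAPDH was higher by 0.16 ± 0.05, a call that 6 of 15 alternatives did not keep. Of 22 hypoxia-inducible genes, 7 rose and 2 fell, led by NDRG1 (1.00 ± 0.12). Glucocorticoid-responsive genes rose in 7 of 14 cases, such as TSC22D3 (0.78 ± 0.07) and ZBTB16 (1.39 ± 0.20), and fell in 2. CYP1A1, a target of the aryl hydrocarbon receptor, was at 36.6, 41.3, and 46.9 CPM and then 40.8, 39.7, and 26.6 CPM, with overlapping groups and a log2 fold change of −0.22 ± 0.13 (adjusted p = 0.23), while CYP1B1 rose by 0.67 ± 0.09 and TIPARP fell by 0.75 on the log2 scale.

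**Figure D4:**
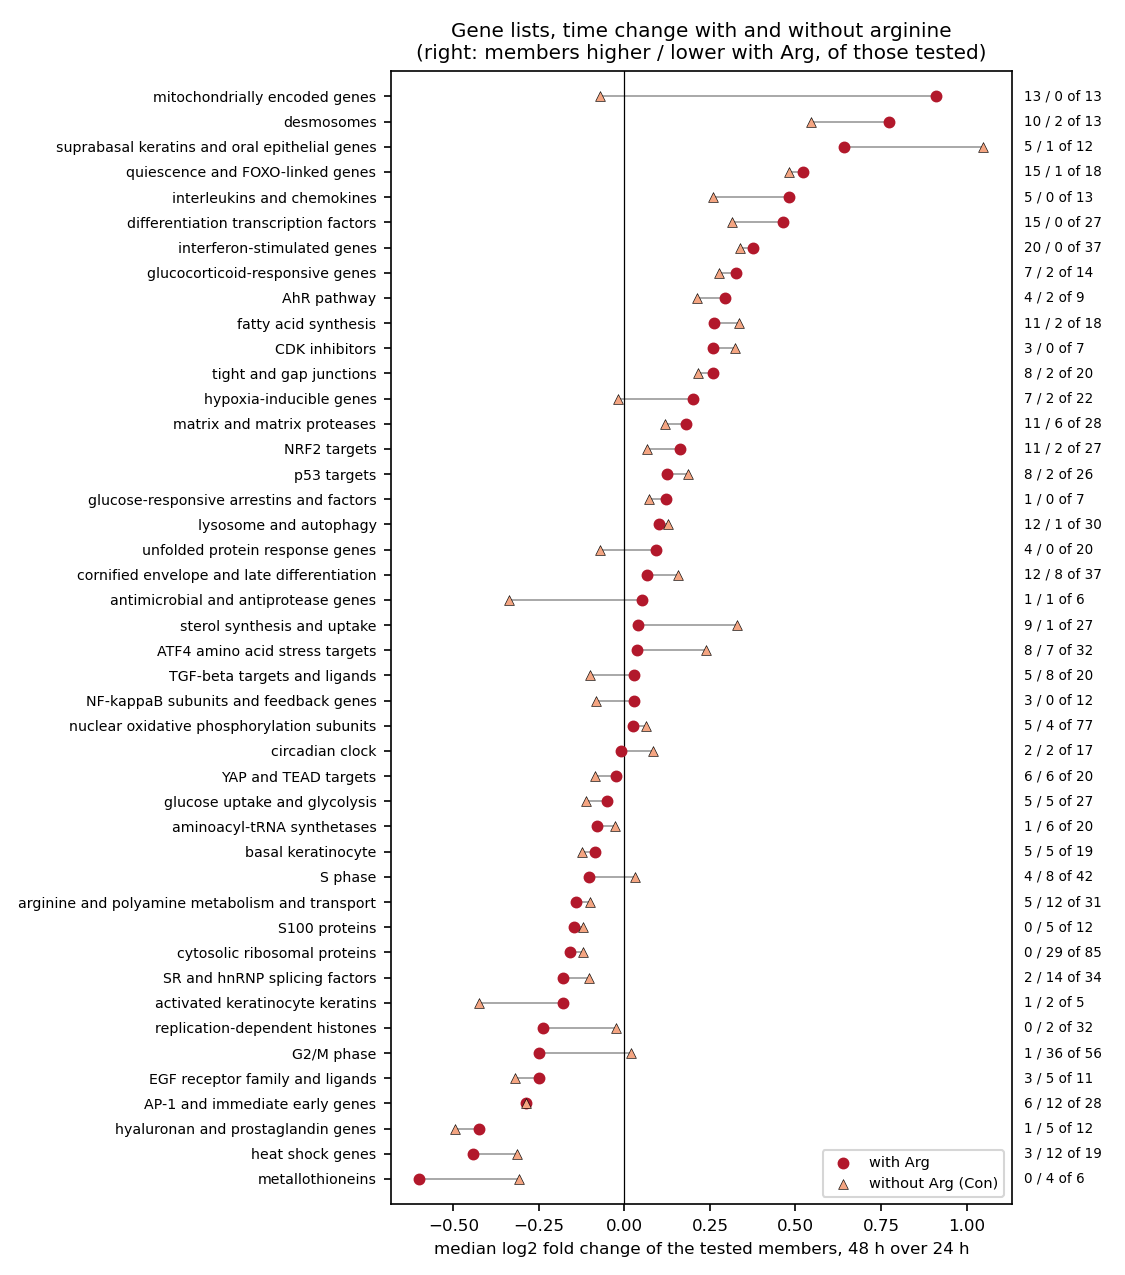
Median log2 fold change from 24 to 48 h (horizontal axis) of the tested members of 44 gene lists (vertical axis), with circles for Arg and triangles for Con (Con 48 h replicate B included) and, on the right, how many members were higher and lower with Arg. Mitochondrially encoded genes are the top circle (0.91) and the metallothionein list, which also holds SLC30A1 and MTF1, the bottom one (−0.60). The circle and triangle lie farthest apart for mitochondrially encoded genes (0.91 and −0.07), with wide gaps also for suprabasal, antimicrobial, metallothionein, sterol, and G2/M genes.

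Without Arg, time changed many of the same genes in the same direction. In the Con libraries, 1431 of 14449 tested genes (9.90%) were higher and 1451 (10%) lower at 48 h. Across 14057 genes tested in both, the time changes with and without Arg had a Spearman rho of 0.67 (0.60 without Con 48 h replicate B), a correlation across genes from separate libraries that were handled in 1 experiment. Of 2041 genes called higher with Arg and tested without, 1974 were higher without Arg and 1016 were also called, which is 49.8% of these calls with Arg and 71% of those without. Of 2004 called lower, 1913 were lower without Arg and 1028 were also called, 51.3% and 70.8% of the 2 sets. These overlaps moved with single Con libraries, to 371 and 349 shared calls without Con 24 h replicate A, 428 and 441 without C, 733 and 739 without Con 48 h replicate A, and 808 and 895 without Con 48 h replicate B. In opposite directions, 3 genes were called. The leading genes had similar values, with NOTCH3 at 2.21 with Arg and 2.24 without, HSPA8 at −1.24 and −1.15, MT2A at −1.35 and −1.15, DUSP6 at −1.74 and −1.80, and KRT13 at 1.49 and 1.48. Without Con 48 h replicate B, the Con values were 1.42 for NOTCH3, −1.10 for HSPA8, −0.77 for MT2A, −1.65 for DUSP6, and 0.94 for KRT13. MT2A lost its Con call without Con 24 h replicate A (adjusted p = 0.118, edgeR) or C (0.116) and with DESeq2 (0.0629), and KRT13 without Con 24 h replicate A (0.0517).

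The difference between the 2 time changes was tested as an interaction over all 12 libraries. Of 15148 genes, 2 (0.0132%) passed at an adjusted p under 0.05, MT-RNR1 and FOS, and at an unadjusted p under 0.05 the time change was more positive with Arg in 464 genes (3.06%) and more negative in 576 (3.80%). The number that passed depended on the libraries and the tool. Without Con 48 h replicate B, 28 genes passed as more positive and 18 as more negative with Arg. These counts were 6 and 4 without Con 24 h replicate B and at most 1 and 0 without any other library. DESeq2 on all 12 libraries gave 9 and 12. In the main fit, the next smallest p was that of OXCT1, a mitochondrial enzyme of ketone use, whose change was −0.29 with Arg and 0.23 without (0.24 without Con 48 h replicate B), with an adjusted p of 0.13 for the difference. This adjusted p was 0.00019 with DESeq2 and 0.014 in edgeR with no filter on low counts. With edgeR it was 0.019 without Con 48 h replicate B and between 0.081 and 0.56 without each other library. FOS rose with Arg by 0.83 and had a log2 fold change of −0.28 without it (adjusted p = 0.14 with edgeR, and 0.046 with the replicate block). Of the mitochondrially encoded genes, 11 of 13 had a more positive time change with Arg at an unadjusted p under 0.05 and none passed after adjustment. At 24 h their genome took 1.20%, 1.30%, and 1.23% of counts in the Con libraries, more than in any Arg 24 h library. The median change was 0.91 with Arg and −0.07 without, where none of the 13 was called in either direction. With the replicate letter as a block, which paired the Con libraries, the Con median was −0.18 and 3 of the 13 were called lower. Without Con 48 h replicate B, the Con median was −0.54 with 10 of the 13 called lower, and 12 of the 13 differences passed after adjustment. None passed with DESeq2, and 12 passed with no filter on low counts. In that unfiltered edgeR fit, the unadjusted p of MT-CO1 was 1.6e-32, against 9.6e-05 in the main fit, at differences of 1.10 and 1.09. Its p-values are thus not on a like footing with the others, and the cause was not tested. In G2/M genes, 28 of 56 had a more negative time change with Arg at an unadjusted p under 0.05 and none had a more positive one, with median changes of −0.25 with Arg and 0.02 without (0.03 without Con 48 h replicate B). Between 17 and 32 of the 56 did so when each library was left out in turn, with 17 without Con 24 h replicate C or Arg 48 h replicate A. None passed after adjustment, but 2 did so with DESeq2, with no filter on low counts, and without Con 48 h replicate B. NDC80, a kinetochore protein, and HMGB2, a chromatin protein, had the smallest p-values of that list, with changes of −0.34 and −0.27 with Arg and 0.19 and 0.24 without (0.16 and 0.17 without Con 48 h replicate B), and both were chosen after their values were seen. Sterol genes had a more negative change with Arg at an unadjusted p under 0.05 in 11 of 27 cases, none of which passed after adjustment, and their medians were 0.04 with Arg and 0.33 without (0.31 without Con 48 h replicate B). After adjustment, 2 sterol genes passed with DESeq2 and 3 with no filter on low counts. When each library was left out, 0 to 2 passed, and the count at the unadjusted threshold was 9 to 15. Without Arg, 13 of the 27 were called higher, 7 without Con 24 h replicate A and 6 without C. ATF4 targets changed more negatively with Arg in 10 of 32 cases at an unadjusted p under 0.05. SR and hnRNP splicing factors did so in 9 of 34. In both lists none changed more positively at that threshold and none passed after adjustment. When each library was left out, the counts at the unadjusted threshold were 6 to 10 and 5 to 10. After adjustment, 2 ATF4 targets passed with no filter on low counts, and 0 to 2 passed when each library was left out. The ATF4 medians were 0.04 with Arg and 0.24 without (0.21 without Con 48 h replicate B). Those of the splicing factors were −0.18 and −0.10 (−0.09). The medians of heat shock genes were −0.44 with Arg and −0.31 without (−0.29 without Con 48 h replicate B).

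**Figure D5:**
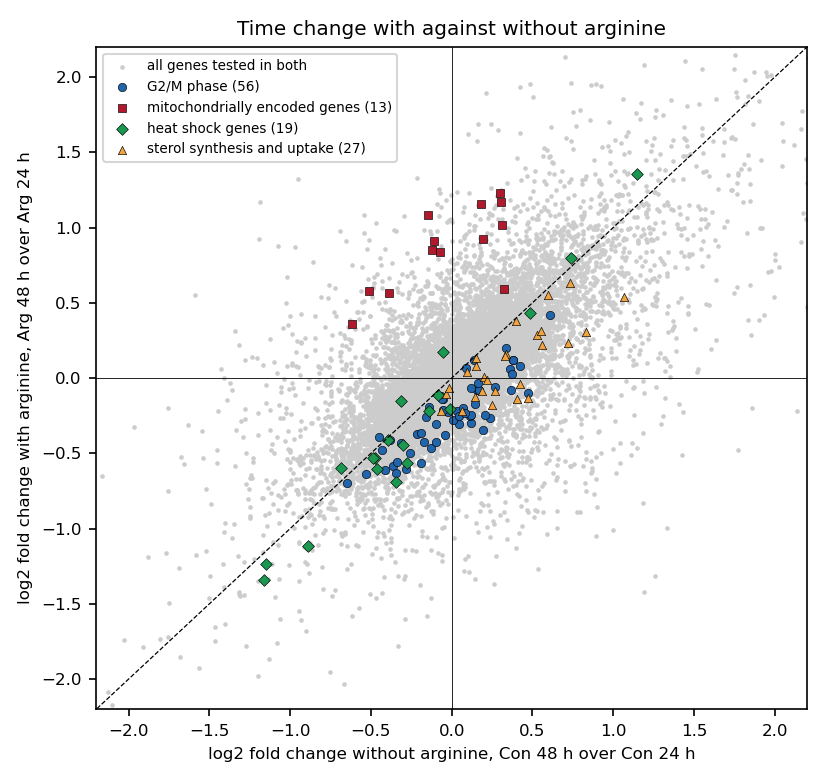
Log2 fold change from 24 to 48 h with Arg (vertical axis) against that without Arg (horizontal axis), with gray points for all genes tested in both, colored points for 4 lists, and a dashed line of equal change. Mitochondrially encoded genes lie above the line and most G2/M and sterol genes below it, while heat shock genes lie close to it. The axes stop at 2.2, so genes with larger changes are not drawn.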

How the data were processed

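Poly(A) RNA of 12 TIGK libraries was sequenced by the authors, who cleaned the reads (fastp), aligned them to GRCh38/hg38 (STAR), and assigned them to genes (featureCounts). The authors deposited raw counts for 58735 genes, with exonic lengths. The annotation release, strand setting, and tool versions are not given in the sources used here. Depth was 16542243 to 19033907 counts per Arg library, and 0 columns were left out.

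Libraries were grouped by their labels. Arg 48 h was compared with Arg 24 h in a fit of these 6 libraries with edgeR 4.0.16 in R 4.3.3 (TMM, quasi-likelihood test, genes with low counts removed by filterByExpr, Benjamini–Hochberg adjustment over all tested genes). The Con libraries were fitted likewise, and the difference as an interaction over 12 libraries. CPM values use TMM factors of all 12 libraries, whereas fold changes come from the 6-library fit. On counts simulated from the fitted spread, 98 of 100 2-fold changes and 75 of 100 changes of 0.5 (log2) were recovered. All changed genes were above 5 CPM. There were 5 false calls in the run of 14166 genes, which included the changed ones. Far more genes were called in the data, so these rates need not hold there.

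Named genes were the 10 protein-coding genes with the smallest p and the 5 with the largest change in each direction (at least 5 CPM, no overlap), up to 4 members of each of 44 lists by p, 12 preset genes, and the 3 smallest interaction p. Others were chosen after their values were seen. The members and lists were chosen with earlier results of these data known. Same-lettered Arg libraries did not deviate together (correlations −0.018, −0.097, and −0.074). Same-lettered Con libraries correlated at 0.22, 0.34, and 0.14, but Con 24 h replicate A and Con 48 h replicate C, with unlike letters, reached 0.28. Pairing of the Con libraries by letter was thus not clear, and the labels do not state it. Blocked Con values are given where a call changed. The alternatives included DESeq2 1.42.0. Promoters came from a RefSeq table, with 250 upstream bases searched. Some genes are not reported here.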

Additional observations from a re-analysis of the deposited data

Results flagged for a closer look

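The time change of 2 genes differed between Arg and Con cells by the interaction test over all 12 libraries. MT-RNR1, the small mitochondrial ribosomal RNA, had a difference of 0.83 (log2, Arg minus Con; adjusted p = 0.023). It is a ribosomal RNA counted in poly(A) libraries, and the part of that selection in its level was not tested. Its change was −0.20 with Arg and −1.03 without. Its adjusted p lay between 0.00094 and 0.178 when each library was left out in turn. FOS had a difference of 1.11 (adjusted p = 0.023), with changes of 0.83 and −0.28, and its adjusted p lay between 0.00050 and 0.178. Without Con 24 h replicate B or Con 48 h replicate B both genes passed, MT-RNR1 also without Arg 24 h replicate A or Con 48 h replicate A, and neither passed when any of the other libraries was left out.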

How the results depend on the processing

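The number of genes higher at 48 h with Arg lay between 1535 and 2568 over 15 alternatives and the number lower between 1378 and 2016, each within 1.5 times the reported count. Of 190 named genes, 164 kept direction and side of the threshold in every alternative that gave them a value, which was all 15 for 182 of them. Among the values of the others, 73 lost the call, 5 gained it, and 8 reversed. The reversals were those of 2 genes that did not pass the test. MKI67 was −0.083 with the length correction and between −0.064 and 0.24 when each library was left out, and KRT5 was 0.044 with library size only, 0.017 with the length correction, and between −0.094 and 0.034. Counts of 1 to 3 called members of a list moved by at most 2 genes when a library was left out. With a replicate block (the letter in the labels), 1926 genes were higher and 1853 lower, and Con gave 1969 and 2075. The letters did not pair the Arg libraries and did not clearly pair the Con libraries, and the block gave 2 and 0 genes for the interaction. The cause of each shift below was not tested. For the interaction, DESeq2 called 9 genes more positive and 12 more negative with Arg, no filter on low counts gave 51 and 37, and leaving out each library gave 0 to 28 and 0 to 18, both highest without Con 48 h replicate B. For Con, leaving out each library gave 422 to 1585 genes higher and 406 to 1719 lower, lowest without Con 24 h replicate A (497 and 501 without C, and 912 and 920 without Con 48 h replicate A). Depth limits genes under about 1 CPM, and 3 libraries a group limit small changes.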
